A study of Drosophila melanogaster with 2 samples.

Results

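The genes of the aminoacyl-tRNA synthetases were examined for calls of the heterochromatin protein ADD1 near their starts. They were taken by symbol from the Ensembl annotation of the dm6 genome: the 3-letter name of an amino acid (or GluPro) followed by RS, with or without the suffix -m. The rule found 33 genes among 18277 annotated genes, of which 13968 are protein-coding. Of these, 18 have no suffix and are called cytoplasmic here, and 15 carry -m and code for mitochondrial enzymes. The study is an anti-GFP ChIP-seq of whole Drosophila melanogaster embryos of mixed sex, 0 to 16 h old, from the ADD1-MiMIC-GFP strain. In this strain an eGFP exon placed in an intron of ADD1 makes an ADD1-GFP fusion at the gene's own locus. The only group holds 2 biological replicates, numbered 1 and 3, so conditions could not be compared, and no library from flies without the tag was analysed here. Chromatin was sonicated to 200 to 800 bp; the antibody field of the labels names CG8290, while their description names anti-GFP. Whole embryos mix all cell types, and a call in few cells cannot be told apart from a weak call in many.

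Aminoacyl-tRNA synthetases join each amino acid to its tRNA and so supply the substrates of translation. One set of enzymes works in the cytoplasm. Another, also encoded in the nucleus, is imported into mitochondria. In animals several cytoplasmic enzymes are held together with scaffold proteins in a multisynthetase complex. All are needed in nearly every cell, where they serve protein synthesis. ADD1 is a chromatin protein related to the ADD domain of the vertebrate remodeller ATRX and is known from heterochromatin.

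A call is a region that the authors' caller reported, ranked here by its deposited signal value from the strongest (rank 1). The pooled list of both replicates and each replicate's own list hold 30000 calls. The authors kept 4402 pooled peaks by the irreproducible discovery rate procedure (IDR, optimal set), and these are exactly the 4402 strongest pooled calls, with signal values down to 96.4. A call was given to a gene when its summit lay within 500 bp of any annotated start. Read depth is unknown, and the scale of the signal depends on the library, so levels were compared by rank within a list. Every stretch of 32 bases within 500 bp of a start of the 33 genes occurs once in the assembly. Intervals are 95% exact (Clopper-Pearson) intervals for counting error only.

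ADD1-GFP peaks were kept at 11 of 18 cytoplasmic synthetase genes and at 1 of 15 mitochondrial ones, with calls shared between neighbouring genes counted for each. A pooled call lay near a start of 22 of the 33 genes (66.7%, interval 48.2 to 82.0%), against 49.3% of protein-coding genes. A kept peak lay at 12 (36.4%, 20.4 to 54.9%), against 22.9% of protein-coding genes and 19.0% of all annotated genes. Among the genes with a call, 12 of 22 had a kept peak (54.5%), close to the 46.5% of protein-coding genes with a call. Split by compartment, 11 of the 18 cytoplasmic genes had a kept peak (61.1%, 35.7 to 82.7%), and 1 of the 15 mitochondrial genes did (6.67%, 0.169 to 31.9%). The cytoplasmic count was 6 with each call given only to its nearest start and 7 with the strongest 2201 kept peaks, and the mitochondrial count was 2 without replicate 1. The 22.9% of protein-coding genes does not carry over to the nearest-start rule or to the strongest 2201 kept peaks. Any pooled call was present at 16 of 18 cytoplasmic (88.9%, 65.3 to 98.6%) and 6 of 15 mitochondrial genes (16.3 to 67.7%). The median rank of the strongest call was 2947 over the 16 cytoplasmic and 7234 over the 6 mitochondrial genes that had one, and 4816 over the 6881 protein-coding genes that had one. The difference between the 2 kinds of gene was not tested, since genes are not replicates of a condition.

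**Figure D1:**
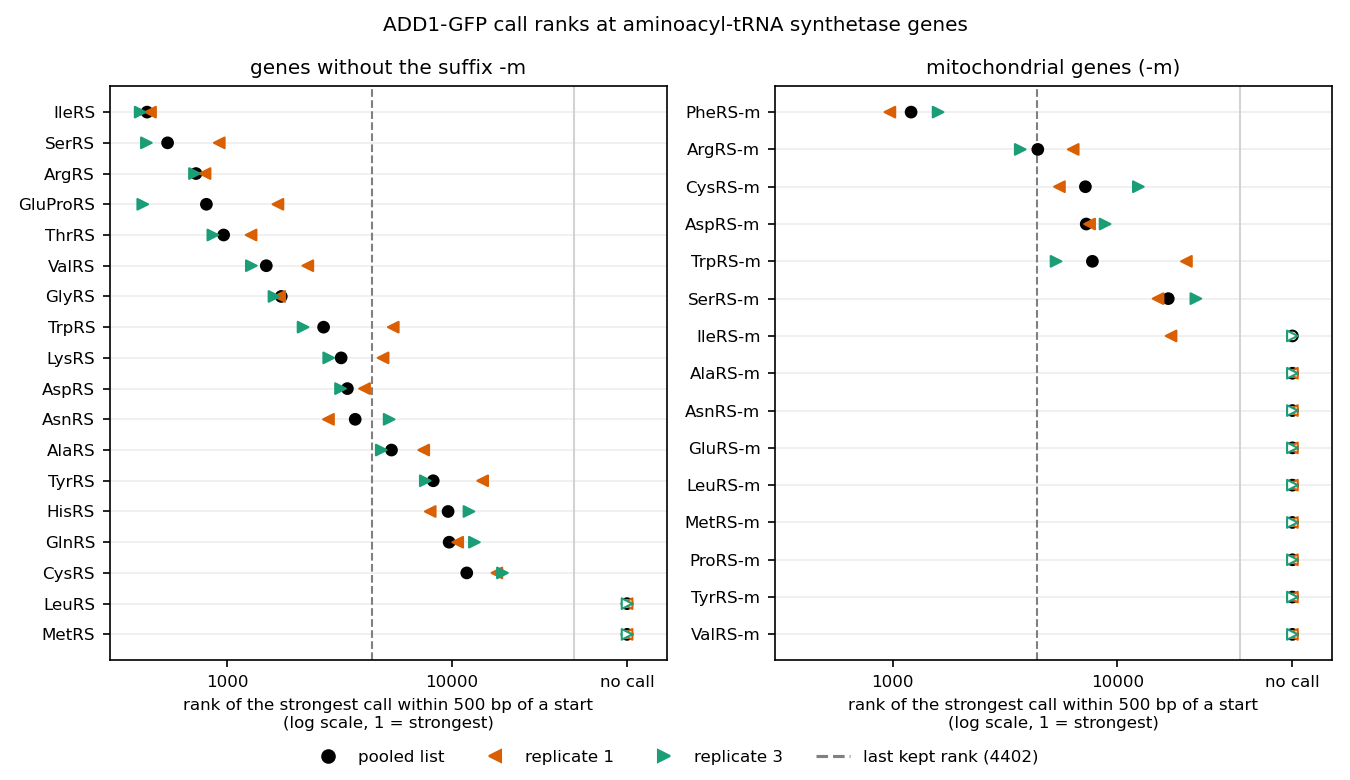
Rank of the strongest call within 500 bp of a start (log scale, 1 is the strongest) for each synthetase gene, in the pooled list (circles), replicate 1 (left-pointing triangles) and replicate 3 (right-pointing triangles), with open symbols where a list had no call and a dashed line at rank 4402. Kept peaks, left of the line, are at 11 cytoplasmic genes and at PheRS-m alone among the mitochondrial ones, and 8 mitochondrial genes had no call in any list.

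The strongest peak was at IleRS, the isoleucine enzyme (chr3L, 22288287 to 22288710). Its signal was 286 in the pooled list, 132 in replicate 1 and 161 in replicate 3, with ranks 440, 456 and 410. SerRS, the serine enzyme (chr2L, 3037110 to 3037533), followed with a signal of 265 in the pool, 101 in replicate 1 and 157 in replicate 3, and ranks 543, 922 and 437. SerRS was the only member with 2 kept peaks, the second at rank 4393, just inside the limit. The second (3037310 to 3037733) overlaps the first, and both matched the same call in each replicate. ArgRS, the arginine enzyme (chrX, 15844113 to 15844536), had signals of 236, 107 and 132 and ranks 726, 797 and 715 in the same order of lists. Of these 3, SerRS in replicate 1 had the lowest place in any list.

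GluProRS joins the glutamate and the proline enzyme in 1 polypeptide (chr3R, 23958312 to 23958735). Its signal was 227 in the pool, 78.1 in replicate 1 and 159 in replicate 3, with ranks 808, 1681 and 421. ThrRS, the threonine enzyme (chr2L, 12103432 to 12103855), had signals of 213, 88.1 and 123 and ranks 964, 1277 and 863. Both were placed higher in replicate 3 than in replicate 1. ValRS, the valine enzyme (chr2R, 13198167 to 13198590), had signals of 176, 67.9 and 104 and ranks 1492, 2283 and 1280. GlyRS, the glycine enzyme (chr3L, 15094769 to 15095192), had signals of 163, 77.6 and 93.6 and ranks 1739, 1711 and 1614, the narrowest spread of these 4.

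PheRS-m, the mitochondrial phenylalanine enzyme (chr2R, 13967977 to 13968400), was the 1 mitochondrial gene with a kept peak. Its signal was 195 in the pool, 99.2 in replicate 1 and 94.3 in replicate 3, with ranks 1209, 973 and 1594, so it was among the 4402 strongest calls of both libraries. ArgRS-m (chr3R, 7886725 to 7887148) lay just outside the limit, at rank 4425 with a signal of 96.1. It ranked 6359 in replicate 1 (signal 38.4) and 3696 in replicate 3 (signal 59.6), where it would have been among the 4402 strongest.

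The weaker kept peaks were at TrpRS, LysRS, AspRS and AsnRS, which charge the tRNAs of tryptophan, lysine, aspartate and asparagine. TrpRS (chr3R, 9266774 to 9267197) had signals of 131 in the pool, 41.9 in replicate 1 and 79.8 in replicate 3, and ranks 2683, 5476 and 2174. LysRS (chrX, 9608696 to 9609119) had signals of 118, 44.6 and 69.6 and ranks 3211, 4934 and 2827. AsnRS (chr2L, 19131780 to 19132203) went the other way, with signals of 108, 60.9 and 47.0 and ranks 3708, 2821 and 5248. These 3 kept peaks were therefore not among the 4402 strongest calls of both libraries, while AspRS was, at ranks 3423, 4082 and 3190.

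Counted in each library on its own, the 4402 strongest calls reached 10 of the 33 genes in replicate 1 (30.3%, against 22.4% of protein-coding genes) and 12 in replicate 3 (36.4%, against 23.3%). The strongest pooled call matched a top call of both replicates at 9 genes (27.3%), against 18.4% of protein-coding genes. Of these 9, 8 were cytoplasmic and 1 was PheRS-m. Of the 12 genes with a kept peak, 10 were placed nearer the top in replicate 3 than in replicate 1, the exceptions being AsnRS and PheRS-m. The same held for 55.7% of protein-coding genes with a kept peak that matched in both replicates. Across the 22 genes with a call, Spearman's rho between the replicate ranks was 0.897, a description over genes called with a shared control file.

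The strongest call was not kept at 5 cytoplasmic and 5 mitochondrial genes. Beside their kept peak, ArgRS, AsnRS, AspRS, GluProRS, LysRS and ValRS each had a weaker call that was not kept. At AspRS (rank 5195, -82 bp) and ValRS (rank 10589, -180 bp) this weaker call was nearer to an own start than the kept peak. AlaRS, the alanine enzyme, ranked 5377 in the pool, 7480 in replicate 1 and 4842 in replicate 3. TyrRS ranked 8244, HisRS 9600, GlnRS 9703 and CysRS 11621 in the pool. Among mitochondrial genes, CysRS-m ranked 7204, AspRS-m 7265, TrpRS-m 7739 and SerRS-m 16831. The replicates were furthest apart at TrpRS-m, with rank 20272 in replicate 1 and 5333 in replicate 3.

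No pooled call was near a start of 11 genes, namely the cytoplasmic LeuRS and MetRS and the mitochondrial AlaRS-m, AsnRS-m, GluRS-m, IleRS-m, LeuRS-m, MetRS-m, ProRS-m, TyrRS-m and ValRS-m. IleRS-m had a call in replicate 1 alone (rank 17320, summit 281 bp from its start). The other 10 had none within 500 bp of a start in either replicate. The nearest pooled summit was 6971 bp from LeuRS and 4678 bp from MetRS. It was 2260 bp from GluRS-m, where the call is that of TyrRS, and 18635 bp from MetRS-m. Since each list stops at 30000 calls, a gene with none may hold signal below the weakest listed value, which was 25.8 in the pool.

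The 2 kinds of enzyme were also set side by side for each amino acid. A cytoplasmic and a mitochondrial gene were at hand for 14 amino acids, with GluProRS standing beside both GluRS-m and ProRS-m. The cytoplasmic gene had the stronger call at 11, the mitochondrial gene at 1, and neither had a call at 2 (leucine and methionine). The same counts were found in the pooled list and in each replicate list, with the same enzyme ahead in all 3 lists at each amino acid that had a call. For arginine, aspartate, glutamate, proline, tryptophan and valine, the pooled summit of the leading call was nearer to another gene's start. The same was true of CysRS-m. For arginine the pooled ranks were 726 and 4425, for serine 543 and 16831, and for aspartate 3423 and 7265. The exception was cysteine, where CysRS ranked 11621 and CysRS-m 7204. CysRS-m was ahead in replicate 1 (5523 against 15821) and in replicate 3 (12386 against 16745). Of the 13 cytoplasmic genes in these pairs, 8 had a kept peak. Of the 5 without a -m partner (GlnRS, GlyRS, HisRS, LysRS and ThrRS), 3 did. A kept peak was at 22.9% of protein-coding genes, and the split by partner was not tested. In humans the single genes for GlyRS and LysRS code for both the cytoplasmic and the mitochondrial form. Phenylalanine is not among the 14 amino acids, because the rule takes no cytoplasmic gene for it. PheRS-m ranked 1209 in the pool, between the cytoplasmic subunit genes beta-PheRS (532) and alpha-PheRS (14545).

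Most of these calls lay between the synthetase start and the start of another gene. At all 22 genes with a call, the summit of the strongest call was upstream of the nearest own start, at -471 to -3 bp. The median was -126 bp over the 12 genes with a kept peak. At SerRS and AspRS that start was internal, at 3037263 and 12880284, while the 5′ ends of the genes are at 3037403 and 12877004. Both summits therefore lay inside the gene itself. With the 5′ end of each gene alone, kept peaks were at 11 genes. Upstream summits were found at 81.5% of protein-coding genes with a call. The summit was outside any annotated gene at 19 of the 22. It was in an intron at AspRS and SerRS-m and in a 5′ UTR at SerRS. All 11 cytoplasmic genes with a kept peak shared it with another gene whose start was also within 500 bp, and PheRS-m did not. Of protein-coding genes with a kept peak, 61.9% shared it. Where the nearest other start was on the opposite strand, the summit lay between the 2 starts at 15 of 15 genes.

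**Figure D2:**
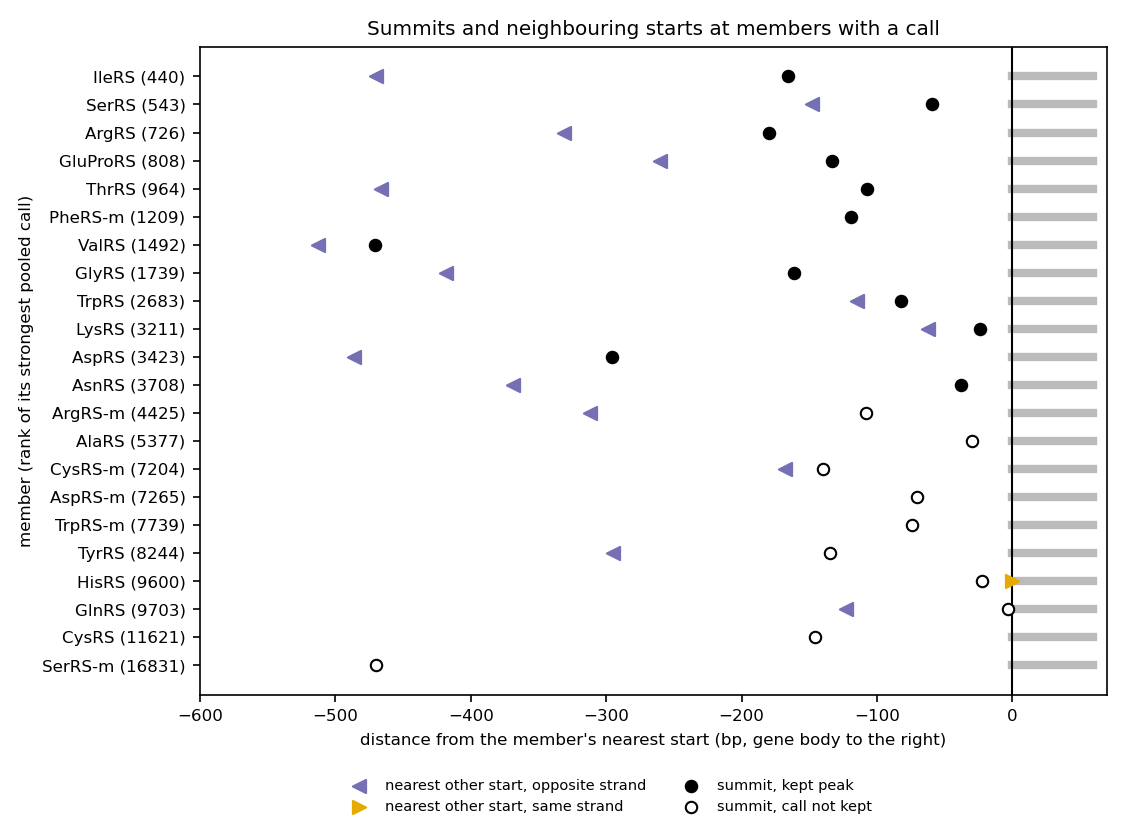
Summit of the strongest pooled call relative to the nearest start of each of the 22 genes with a call (bp, gene body to the right), with filled circles for kept peaks and open circles for others, and triangles for the nearest other gene start sharing the call. Every summit lies upstream of the nearest synthetase start, and at 15 genes it lies between that start and one on the opposite strand. At SerRS and AspRS the nearest start is internal, and the summit lies inside the gene.

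Because calls were shared, the summit of the strongest call was nearer to the neighbour than to the synthetase at 5 of the 12 genes with a kept peak. Positions are given from the nearest synthetase start, negative upstream. The second kept peak of SerRS, at -119 bp, lay beyond the start of CG17260, which is 8 bp upstream of SerRS. The ArgRS summit was at -180 bp and 151 bp from the start of CG8578. That of GluProRS was at -133 bp and 127 bp from AP-1sigma, a clathrin adaptor subunit gene. The ValRS summit, at -471 bp, was 42 bp from Kdm4B, which codes for a histone H3 demethylase, so it lay almost at the neighbour's start. At TrpRS the summit was at -82 bp and 33 bp from Vps16A, a gene of endosome fusion, and at AspRS at -296 bp and 190 bp from Nmda1. Among the calls that were not kept, that of CysRS-m was at -140 bp and 28 bp from O-fut1, a fucosyltransferase gene. With each call given only to its nearest start, kept peaks were at 7 of the 33 genes, 6 cytoplasmic and 1 mitochondrial. No share of protein-coding genes under this rule is given, so these counts cannot be set against one. The summit was nearer to the synthetase at IleRS (-166 bp, with Hem 304 bp away), SerRS (-59 bp), ThrRS (-107 bp), GlyRS (-161 bp), LysRS (-24 bp) and AsnRS (-38 bp).

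Kept peaks at cytoplasmic genes were mostly at genes in a head-to-head arrangement, in which most cytoplasmic genes stand with or without a peak. PheRS-m, the mitochondrial gene with a kept peak, does not stand in it. A start on the opposite strand lay within 500 bp upstream at 14 of 18 cytoplasmic and 7 of 15 mitochondrial genes, against 29.6% of protein-coding genes. Kept peaks were found at 43.5% of protein-coding genes with such a divergent start and at 14.2% of those without. Among synthetase genes with a divergent start, 10 of 14 cytoplasmic (71.4%) and 0 of 7 mitochondrial genes (interval up to 41.0%) had a kept peak. Without one, 1 of 4 cytoplasmic genes and 1 of 8 mitochondrial genes (12.5%) had one, namely ValRS and PheRS-m. ValRS counts here only through the 500 bp limit, since the start of Kdm4B is at -513 bp and the summit lies between both. With a divergent start, a call of any rank was at 12 of 14 cytoplasmic and 2 of 7 mitochondrial genes. Without one, it was at 4 of 4 and 4 of 8. Such a call was at 49.3% of all protein-coding genes, and their share by arrangement is not given. The 7 mitochondrial genes with a divergent start include LeuRS-m, 166 bp from Dhc64C (the dynein heavy chain), and AsnRS-m, 53 bp from ste24a, neither with a call. What part of the difference between the 2 kinds of gene goes with this arrangement was not tested.

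**Figure D3:**
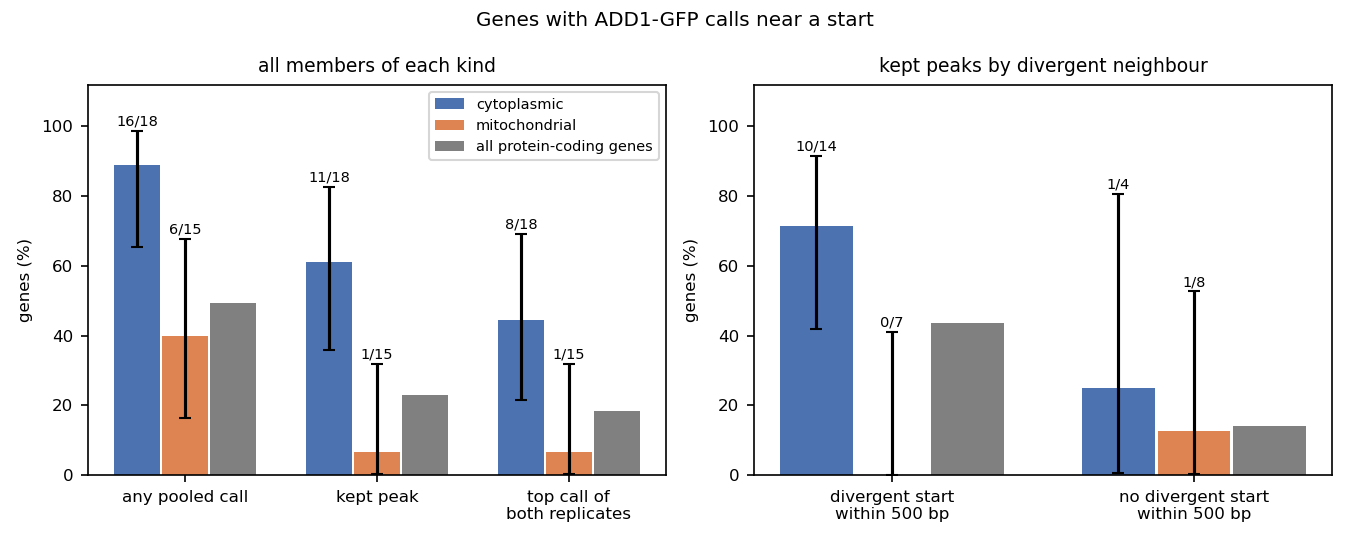
Percent of cytoplasmic and mitochondrial synthetase genes and of all protein-coding genes with a pooled call, a kept peak or a top call of both replicates (left panel), and with a kept peak by presence of a divergent start within 500 bp (right panel). Error bars are 95% exact intervals and the counts stand above them; kept peaks were at 10 of 14 cytoplasmic and 0 of 7 mitochondrial genes with a divergent start.

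The DNA replication-related element (DRE), TATCGATA, is the site of the transcription factor DREF and marks promoters of many broadly expressed fly genes. It and its core TCGATA were searched on both strands, and the stretches below show them, or the core's reverse complement, in capitals at 5 of the members that hold them, chosen among sites outside annotated exons; other members with a site are named after them without sequence. The sequences come from the RefSeq Release 6 assembly (dm6 coordinates) and read along the strand of the synthetase gene. At TrpRS (chr3R:9266939-9267018, minus strand) the core lay 1 bp and the full site 14 bp from the summit. At IleRS (chr3L:22288593-22288660, plus strand) the site was at -39 bp from the start and 127 bp from the summit. ArgRS had 1 site at -30 bp (chrX:15844146-15844209, minus strand) and a pair near the CG8578 side (chrX:15844415-15844475). AlaRS, whose call was not kept, had a site 15 bp from the summit (chr2L:8381765-8381813, minus strand). AspRS-m, also not kept, had a pair of cores (chr2L:16827000-16827077, plus strand).
TrpRS: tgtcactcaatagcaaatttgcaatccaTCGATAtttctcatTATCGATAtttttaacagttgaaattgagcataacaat
IleRS: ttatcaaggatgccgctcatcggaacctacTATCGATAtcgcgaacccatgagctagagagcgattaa
ArgRS, start side: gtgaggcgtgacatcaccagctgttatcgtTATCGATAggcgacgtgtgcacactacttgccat
ArgRS, neighbour side: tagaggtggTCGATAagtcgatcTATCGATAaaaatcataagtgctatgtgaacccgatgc
AlaRS: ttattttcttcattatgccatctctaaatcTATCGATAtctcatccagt
AspRS-m: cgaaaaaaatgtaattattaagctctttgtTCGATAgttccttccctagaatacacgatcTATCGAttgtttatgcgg

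Over the kept members, the count of full sites depended on the window. Within 100 bp of the summit TATCGATA was in 1 of the 12 kept members (TrpRS), against 11.0% of the 2634 kept promoter peaks. Within 200 bp it was in 4 (ArgRS, IleRS, PheRS-m and TrpRS), against 16.2% of them. The core TCGATA, which every full site contains, was in 3 of 12 within 100 bp (AsnRS, TrpRS and ValRS, against 29.0% of kept promoter peaks). Within 200 bp it was in 7, these 3 with ArgRS, AspRS, IleRS and PheRS-m, against 41.4%. From 250 bp upstream to 50 bp downstream of the gene's 5′ end, TATCGATA was in 4 of 18 cytoplasmic and 1 of 15 mitochondrial genes, against 9.36% of protein-coding genes. In that window the core was in 6 cytoplasmic and 3 mitochondrial genes, among them MetRS and SerRS-m, against 27.7% of protein-coding genes. These counts describe letters in fixed windows, and no binding of DREF was measured.

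Other sequence elements were each in 0 or 1 of the 12 kept members within 100 bp of the summit, as TATCGATA was. GGTCACAC, the element of the promoter factor M1BP, was in 1 (ValRS), against 6.91% of kept promoter peaks. TGATGCAA, a composite site of the amino acid response factor ATF4 in mammals, was in 1 (AsnRS), against 0.645%. The core promoter motif GGTATTT was in 1 (SerRS, 8.69%). The E-box CACGTG, the GAGA repeat GAGAGA and the arbitrary octamer ACGTTACG were in 0 of 12, against 2.24%, 8.28% and 0.494%. GC content in the 100 bp on either side of the summit had a median of 34.6% over the 22 genes, from 21.4% at GlyRS to 46.8% at GlnRS and HisRS.

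By enzyme family, kept peaks were at 4 of 9 cytoplasmic class I enzymes, 6 of 8 class II enzymes and GluProRS, which has a domain of each class, against 22.9% of protein-coding genes. Among the 8 cytoplasmic enzymes of the multisynthetase complex, as known from mammals, 5 had a kept peak (ArgRS, AspRS, GluProRS, IleRS and LysRS), GlnRS had a weaker call, and LeuRS and MetRS had none. Of the 10 cytoplasmic enzymes outside it, 6 had a kept peak. These groupings were chosen after the values were known and are a description.

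Other genes of tRNA charging are given by list, to be read against the 22.9% of protein-coding genes with a kept peak. With 2 to 4 genes a list, a count of 0 is not set apart from that share. The cytoplasmic phenylalanine enzyme has 2 subunits whose symbols the rule does not take. Of these, beta-PheRS had a kept peak (rank 532 in the pool, 482 in replicate 1 and 623 in replicate 3, signal 268) with no other gene start within 500 bp of the summit. Its partner alpha-PheRS had a weak call (rank 14545). The scaffold genes AIMP1, AIMP2 and AIMP3 had no call, so 0 of 3 were kept. Of the list of mitochondrial charging factors, 4 of 5 symbols matched a gene and 0 had a kept peak. GatA, a subunit of the enzyme that makes glutaminyl-tRNA in mitochondria, ranked 8209, and Slimp, a paralog of the mitochondrial serine enzyme, ranked 8076. GatB and GatC had no call. Of 4 genes around the phosphorylation of eIF2alpha, 0 had a kept peak. Gcn2, whose kinase senses uncharged tRNA, had no call. PEK, whose kinase acts on the same factor and responds to unfolded protein in the endoplasmic reticulum, ranked 4767. The factor's own gene eIF2alpha ranked 13618, and crc, the fly ATF4 gene, 7538. No call of replicate 1 matched those of Slimp and alpha-PheRS, and none of replicate 3 matched that of eIF2alpha. The calls of GatA, alpha-PheRS and crc were shared with P5cr, CG2129 and CG46314.

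Other parts of the translation machinery are given for scale, without a test. Kept peaks were at 70 of 92 cytoplasmic ribosomal protein genes (76.1%), with a median rank of 1800 over those with a call. They were at 31 of 73 mitochondrial ribosomal protein genes (42.5%, median rank 3921), and at 25 of 290 nuclear tRNA genes (8.62%, median rank 9228). The corresponding values were 61.1% of cytoplasmic synthetase genes (median rank 2947) and 6.67% of mitochondrial ones (median rank 7234). Over all 33 synthetase genes the share was 36.4%, with a median rank of 3566. Kept peaks were at 22.9% of protein-coding genes and at 19.0% of all annotated genes.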

How the data were processed

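ChIP-seq peak lists of 2 biological replicates were used. According to the lists of files deposited with the samples, regions were called by the authors in every replicate and in the pool against 1 control file before IDR. No source used here names the aligner or caller. The authors' signal value of a call was used for ranks within a list. Lists on dm3 were not used here.

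Genes came from Ensembl release 115 and sequence from RefSeq Release 6, both in dm6 coordinates. Replicate calls matched at 50% overlap of the shorter call, taking the best-ranked match. The search for motifs used 100 bp on either side of the summit. Python 3.11.15, pandas 2.3.3 and scipy 1.17.1 were used. Placing and matching of calls were checked on simulated calls. All members are named, the 8 strongest and those that change between lists with full values. No test was run: 1 group allows none. The members, lists and motifs were chosen with earlier results of these data known.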

Additional observations from a re-analysis of the deposited data

How the results depend on the processing

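Of 81 values recomputed under alternatives, 72 stayed within 1.5 times the reported count. With each call given only to its nearest start, kept peaks were at 7 genes in all and 6 cytoplasmic ones, and top calls of both replicates at 5 instead of 9. With the strongest 2201 kept peaks, the count was 7 cytoplasmic genes. Without replicate 1 or without replicate 3, kept-rank calls were at 10 to 12 genes in all, 9 to 10 cytoplasmic and 1 to 2 mitochondrial, the second being ArgRS-m in replicate 3. Calls of any rank were then at 22 to 23 genes. With 200 bp on either side of the summit, GAGAGA was in 2 kept members instead of 0, GGTATTT in 2 instead of 1, TATCGATA in 4 instead of 1 and TCGATA in 7 instead of 3. The causes were not tested. Starts within 200 or 1000 bp gave 10 and 13 genes with a kept peak. The share of protein-coding genes is not given for these distances, for the nearest-start rule or for the strongest 2201 kept peaks. Read depth is unknown, so the precision of each rank cannot be given.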

Other observations

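The promoter element GGTCACAC was found from 250 bp upstream to 50 bp downstream of the 5′ end at 3 of 15 mitochondrial synthetase genes (AsnRS-m, AspRS-m and ProRS-m) and at 1 of 18 cytoplasmic ones (GlnRS), against 7.69% of protein-coding genes. None of these 4 genes had a kept peak, and AsnRS-m and ProRS-m had no call in any list. With 4 genes, this is not set apart from the 22.9% of protein-coding genes that had a kept peak. The kept member ValRS held the element within 100 bp of its summit, which was 42 bp from the start of Kdm4B. It did not hold the element in the window around its own 5′ end.

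HisRS shares its annotated start with a transcript of Bx, a LIM-only protein gene, on the same strand, so its call at rank 9600 belongs to both genes. TyrRS and GluRS-m stand in tandem on chromosome arm 3L, and the call upstream of TyrRS was 2260 bp from the start of GluRS-m.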
